A study of Mus musculus with 34 samples.

Results

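Hearts of mice taken 28 days after carbon black or vehicle alone was placed in the airways were compared across all genes. The comparison used 11 of the 34 arrays of the series, 5 from exposed mice and 6 from control mice, chosen by the exposure and the day in the sample titles. All mice were female C57BL/6, bought at 5 to 6 weeks of age, and no genetic change is named for them. Exposed mice were given a 162 µg dose of the carbon black nanoparticle Printex 90 in 40 µl instilled into the airways. The vehicle was salted purified water with a share of cell-free lung lavage fluid from other C57BL/6 mice, and both groups received it. Hearts were also taken at day 1 (6 control and 6 exposed arrays) and day 3 (6 and 5). Each array set the RNA of 1 heart sample, labelled with Cy5, against a commercial pool of mouse RNA, the Universal Mouse Reference, labelled with Cy3. A level is therefore the log2 ratio of heart over reference RNA, and a change is the mean level of carbon black arrays minus that of control arrays. Sample numbers differ between arrays, and RNA of individual mice is named in the design text, so an array stands for 1 mouse.

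Carbon black of this kind is an insoluble particle that stays in the lung for long after instillation, where it is known to cause inflammation and an acute phase response. The heart is a muscle that lives mainly on fatty acids, and its gene programme runs with a daily clock: Arntl and Clock activate the period, cryptochrome and Rev-erb genes, whose products act back on them. The output factors Dbp, Tef and Hlf, which bind D-box sequences, carry that rhythm to metabolic genes, and Nfil3 opposes them at the same sequences. Whole hearts also hold endothelial, fibroblast, smooth muscle, immune, atrial and adhering fat cells, so a level in bulk RNA follows both the number of such cells and the RNA in each.

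Dbp and Nr1d1 of the clock list were among the 12 higher genes of smallest p. The stretch before the start of transcripts is therefore shown first for 5 members of that list. Besides Dbp these are Tef, Per1, Ciart and Per3, whose windows hold a motif and which were not in that set of small p. Sequences are from RefSeq (mouse build GRCm38.p6), each 250 bases ending just before the annotated start, 5′ to 3′ on the gene's own strand. Capitals mark the E-box CACGTG, the sequence that Arntl and Clock bind, or the D-box TTATGTAA, searched on both strands. Dbp (chr7:45704997-45705246, plus strand) is shown as the clock gene with the largest change, and this window holds neither motif.
Dbp: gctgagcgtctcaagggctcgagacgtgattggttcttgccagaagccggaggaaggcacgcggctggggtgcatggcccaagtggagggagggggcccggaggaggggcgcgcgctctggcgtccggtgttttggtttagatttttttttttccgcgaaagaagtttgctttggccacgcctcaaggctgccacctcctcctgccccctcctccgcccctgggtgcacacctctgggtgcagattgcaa
Tef (chr15:81802423-81802672, plus strand) has 1 E-box, which begins 127 bases before the start, and the window of a second Tef start (chr15:81811164-81811413) also has 1.
Tef: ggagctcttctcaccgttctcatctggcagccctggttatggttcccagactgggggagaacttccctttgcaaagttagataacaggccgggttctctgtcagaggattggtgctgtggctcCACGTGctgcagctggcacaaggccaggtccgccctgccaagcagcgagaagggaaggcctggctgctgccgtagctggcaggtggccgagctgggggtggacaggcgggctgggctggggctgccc
Per1 (chr11:69098699-69098948, plus strand) has 1 E-box, which begins 166 bases before the start, while the window of a second Per1 start (chr11:69099902-69100151) has neither motif.
Per1: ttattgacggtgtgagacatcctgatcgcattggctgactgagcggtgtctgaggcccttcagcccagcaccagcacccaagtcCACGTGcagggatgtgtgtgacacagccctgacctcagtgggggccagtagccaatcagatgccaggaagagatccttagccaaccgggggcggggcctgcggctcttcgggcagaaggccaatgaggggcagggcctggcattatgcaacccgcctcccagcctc
Ciart (chr3:95882229-95882478, minus strand) has 3 E-boxes.
Ciart: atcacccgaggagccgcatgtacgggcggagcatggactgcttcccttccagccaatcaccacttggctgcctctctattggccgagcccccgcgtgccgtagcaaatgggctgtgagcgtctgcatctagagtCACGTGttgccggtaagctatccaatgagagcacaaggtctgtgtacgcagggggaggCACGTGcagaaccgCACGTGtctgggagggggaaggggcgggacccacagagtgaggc
Per3 (chr4:151044666-151044915, minus strand) has 2 D-boxes and no E-box.
Per3: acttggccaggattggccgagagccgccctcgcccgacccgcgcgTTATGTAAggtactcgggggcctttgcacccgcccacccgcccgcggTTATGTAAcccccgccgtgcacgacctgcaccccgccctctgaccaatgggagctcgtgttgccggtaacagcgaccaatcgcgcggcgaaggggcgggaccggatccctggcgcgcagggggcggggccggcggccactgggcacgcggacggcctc
Of all 32851 such windows, 6.02% held the E-box and 0.82% the D-box. The 18 clock genes measured had windows for 15 genes, of which 4 held an E-box and 1 a D-box. Counted by window, as in the shares of all windows, 5 of 20 held an E-box and 1 of 20 a D-box. The windows of Nr1d1, Nr1d2, Hlf, Noct, Arntl and Nfil3 held neither. A match of letters says nothing of binding in these hearts.

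No gene passed the test at day 28. Of 19798 genes tested, 0 (0%) had an adjusted p under 0.05 in limma with Benjamini-Hochberg adjustment, and the lowest adjusted p was 0.999952. At an unadjusted p under 0.05 there were 590 genes (2.98%), 316 higher (1.6%) and 274 lower (1.38%) in exposed hearts, where 990 would be met under that threshold if no gene differed. In 75 genes (0.379%) the exposed and control arrays did not overlap, 33 with exposed arrays higher (0.167%) and 42 lower (0.212%). Only 13 genes (0.0657%) differed by 2-fold or more in either direction, and the median size of a change was 0.10 on the log2 scale beside a median standard error of 0.16. The unadjusted count was 270 without carbon black replicate 5 and 934 without control replicate 2. With each array centred on its median in place of loess it was 158, 111 higher and 47 lower, and 68.8% of all genes stood above 0 where the loess values gave 52.0%. Every gene named from here on is therefore given as a value that did not pass, and its standard error (SE) comes from the fit over all 34 arrays.

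**Figure D1:**
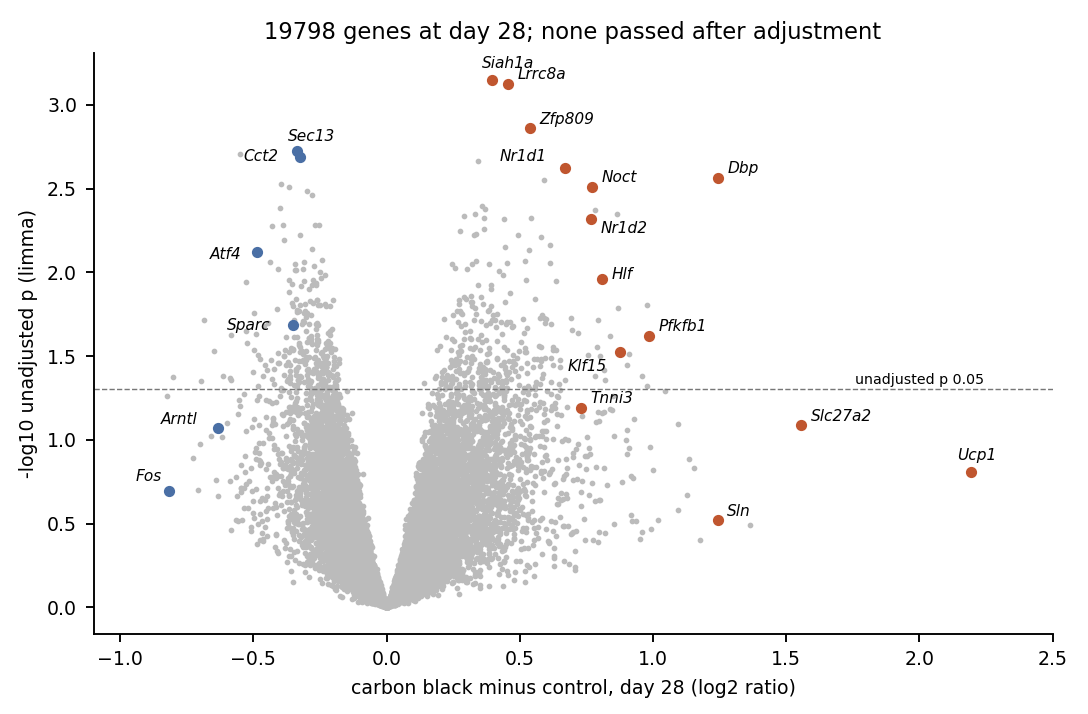
Change at day 28 (carbon black minus control, log2 ratio) against −log10 of the unadjusted limma p, one point for each of the 19798 genes, with the dashed line at an unadjusted p of 0.05. Named points are genes described in the text, orange where the change is above 0 and blue where it is below 0; Dbp combines a change of 1.24 with an unadjusted p of 0.00273, while Ucp1 has the largest change, 2.19, and an unadjusted p of 0.155.

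Tissue content differed between the arrays of both groups. For each array a list's level was taken as the mean of its members' log2 ratios after subtracting each member's mean over the 6 control arrays. Control replicate 2 was low in atrial markers. Its atrial marker level was -2.91, while the other 5 controls lay between 0.11 and 0.80 and the exposed arrays between 0.22 and 1.11. Myl7 was low there too, at 2.84 against 5.71 to 7.05 on the other controls. Not all atrial markers shared this: the Nppa change was 0.41 with that array and 0.40 without it. Adipocyte markers were low on that array (-1.93) and on carbon black replicate 3 (-1.82), and high on carbon black replicates 1 (1.66) and 5 (1.74). T and B cell markers stood at 1.92 on control replicate 6 and at 0.94 on carbon black replicate 1, with all other arrays below 0, and the MHC class II genes were highest on the same arrays, at 1.86 and 1.02. The defining heart muscle transcripts were abundant on every array: Tnni3, the inhibitory troponin of heart muscle, ranged from 5.72 to 6.68 in controls and from 6.48 to 7.21 in exposed hearts. Ventricular marker levels lay between 0.32 and 0.55 on exposed arrays; control replicates 1 and 2 fell in that range, at 0.35 and 0.47, and the other 4 controls below it, from -0.58 to 0.02.

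**Figure D2:**
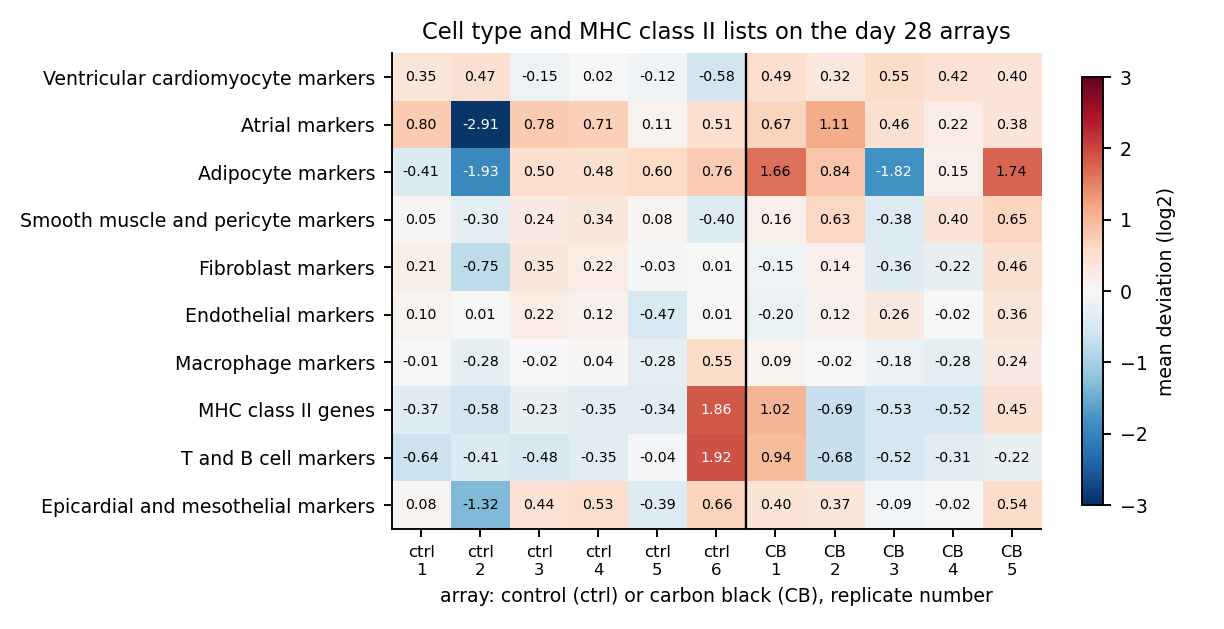
Mean deviation of cell type marker lists and of MHC class II genes on each of the 11 day 28 arrays (log2, relative to the mean of the 6 control arrays), with colour and printed value showing the same number. The atrial level of control replicate 2 (-2.91) and the lymphocyte levels of control replicate 6 (1.92) and carbon black replicate 1 (0.94) stand apart.

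The array layout was tied to exposure as well. At day 28 the 3 arrays at slide position 4 came from exposed mice and the 4 at positions 1 and 2 from controls, while position 3 held 2 of each. The groups met on 3 slides, 1 array of each group per slide, with the control at position 1 and the exposed array at position 4. Spots well above background made up 50.7% to 63.7% of heart-channel spots in controls and 47.0% to 66.6% in exposed hearts, a difference of 0.144 percentage points (exact permutation test over 462 splits, two-sided p = 0.978). No heart-channel spot was saturated. Pairwise correlations of log2 ratios within a group had medians per array of 0.865 to 0.958 in controls and 0.897 to 0.941 in exposed hearts.

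The 12 higher genes of smallest p included Dbp and Nr1d1 of the clock list, and Noct, which is not in that list. Nr1d2, Hlf and Tef were not in that set and are given as members of the clock list. Dbp, the D-box factor with the strongest daily swing in most tissues, had a control mean of -0.26 ± 0.99 (SD, n = 6) and an exposed mean of 0.99 ± 0.28 (SD, n = 5). The exposed arrays read 1.01, 0.71, 1.37, 1.13 and 0.72, and the control arrays had a lowest value of -1.39, a median of -0.44 and a highest of 1.40. All 5 exposed arrays were above 5 of the 6 controls, and the remaining control, replicate 2, was the highest array of all. The change was 1.24 ± 0.38 (SE), a 2.37-fold difference with a 95% interval of 0.46 to 2.02 that takes no account of the number of genes tested (unadjusted p = 0.00273).

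Nr1d1 and Nr1d2 encode the Rev-erb receptors, repressors of Arntl. Nr1d1 read 1.37, 1.68, 1.58, 1.48 and 1.49 in exposed hearts, against 0.29, 0.86 and 1.41 as the lowest, median and highest control. Its change was 0.67 ± 0.20 on the probe with the brightest signal, but the 2 other probes of Nr1d1 gave 0.13 ± 0.12 and -0.19 ± 0.17, so the probes disagreed. Nr1d2 read 1.35, 1.74, 2.05, 1.68 and 1.79 in exposed hearts and 0.10, 1.02 and 1.95 as the lowest, median and highest control, a change of 0.77 ± 0.25. The groups overlapped through control replicate 1 for Nr1d1 and through control replicate 2 for Nr1d2.

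Hlf, related to Dbp, had exposed values of 2.62, 2.70, 2.49, 1.95 and 3.21 and control values from 1.05 through a median of 1.87 to 2.43, a change of 0.81 ± 0.30. For Tef the change was 0.58 ± 0.29, with exposed arrays from 0.14 to 0.94 and controls from -0.61 to 1.54. Noct, a rhythmic enzyme that removes a phosphate from the cofactor NADPH, read 0.87, 1.00, 0.98, 1.12 and 1.24 in exposed hearts. Its controls had a lowest value of -0.21, a median of 0.23 and a highest of 0.99. Only control replicate 2 reached the exposed range for Noct, whose change was 0.77 ± 0.24.

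The period genes and Ciart, repressors within the loop, had changes from 0.14 to 0.59. Per2 differed by 0.59 ± 0.27, with exposed hearts between 0.26 and 0.73 and controls between -0.84 and 0.99. Per1 differed by 0.40 ± 0.42, Per3 by 0.14 ± 0.12 and Ciart by 0.31 ± 0.42. The activator Arntl and the repressor Nfil3 lay on the other side, Arntl at -0.63 ± 0.36 and Nfil3 at -0.42 ± 0.25. Arntl read -0.20, 0.81, 0.13, 0.26 and 0.69 in exposed hearts, below each of 5 controls (1.07 to 1.66), while control replicate 2 read -0.88.

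The clock levels of that control array set the width of the control group. Control replicate 2 was above every other control for Dbp, Tef, Hlf, Nr1d2, Per1, Per2, Ciart and Noct, and below every other control for Arntl and Nfil3. Without it the changes were 1.58 for Dbp, 0.92 for Noct, 0.97 for Nr1d2, 0.87 for Tef, 0.84 for Ciart and -1.004 for Arntl, and still no gene passed (lowest adjusted p 0.433 in limma, Benjamini-Hochberg). This is also the array low in atrial markers, and the part of tissue content in these levels was not tested. The time of day at which hearts were taken is not given in the sources used here, and its part was not tested.

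Over the whole clock list, 18 of 19 genes were measured and 13 were above 0, with a median change of 0.15. An unadjusted p under 0.05 on the higher side was met by 5 of the 18, beside 1.6% of all genes, and none passed. This list, like the others, was chosen with earlier results of these data known, so its counts are a description and not a test. Over all genes tested 52.0% were above 0 and the median was 0.01. The members Bhlhe40, Bhlhe41, Clock, Cry2, Npas2 and Rora lay between -0.04 for Rora and 0.15 for Bhlhe40.

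**Figure D3:**
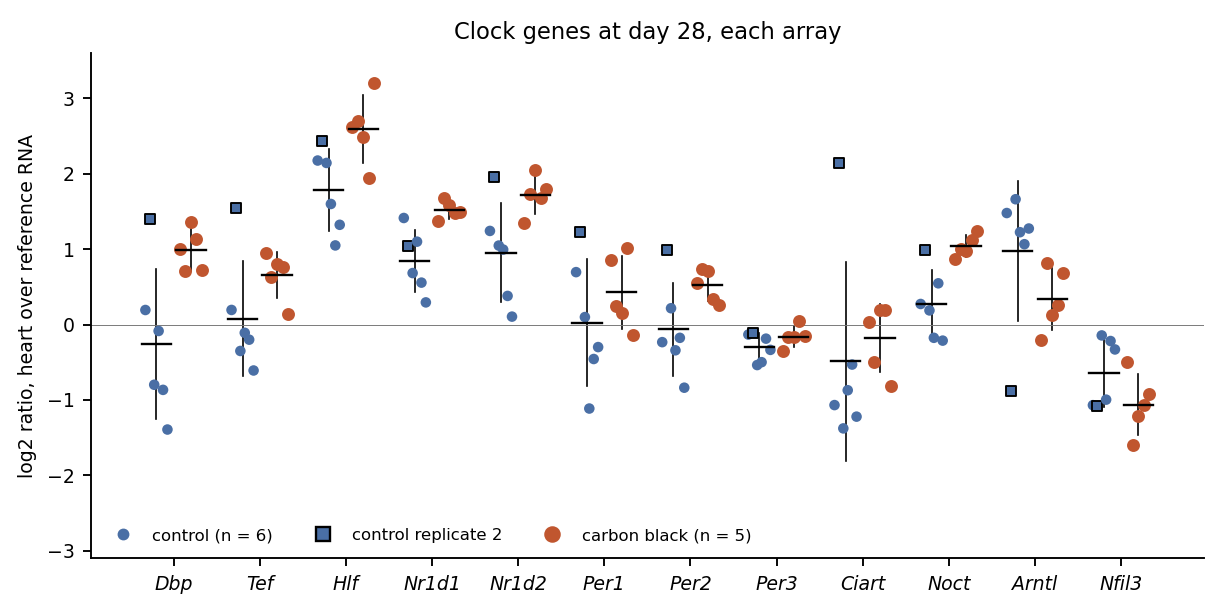
Log2 ratio of heart over reference RNA for 12 clock genes on each day 28 array, controls in blue and carbon black in orange, with horizontal bars at the group mean and vertical bars of 1 SD; the outlined square is control replicate 2. Dbp lies between 0.71 and 1.37 on the exposed arrays, and control replicate 2 lies at the exposed side of the controls for Dbp, Tef, Ciart and Arntl.

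Other genes of the smallest p on the higher side had small changes and little spread. Siah1a, a ubiquitin ligase, ranked first of all genes: exposed arrays read 0.05, 0.03, 0.23, 0.05 and 0.53 and controls ran from -0.48 through a median of -0.21 to just below 0, with no overlap. Its change was 0.39 ± 0.10 (unadjusted p = 0.000706). Lrrc8a, a subunit of the volume-regulated anion channel, read 1.09, 1.23, 1.21, 1.08 and 1.19 in exposed hearts against 0.42, 0.66 and 1.22 as the lowest, median and highest control, and the control in the exposed range was again replicate 2. Its change was 0.46 ± 0.12.

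Nt5e, the surface enzyme CD73 that makes adenosine from AMP, had the largest change of this set outside the clock. Its exposed values were 1.21, 1.87, 1.58, 0.98 and 1.57, its controls ran from 0.24 through a median of 0.71 to 1.01, and the change was 0.78 ± 0.25. Zfp809, a zinc finger silencer of retroviral DNA, differed by 0.54 ± 0.15, and its other probe by 0.15 ± 0.11. Lin52, a part of the DREAM complex that holds cell cycle genes in check, differed by 0.54 ± 0.18 and its groups did not overlap. The protocadherin Pcdh7 differed by 0.59 ± 0.18, the scaffold gene Dlgap2 by 0.36 ± 0.12 and the lysosomal thioesterase gene Ppt2 by 0.33 ± 0.11. The kinase Tlk1 differed by 0.29 ± 0.10, with carbon black replicate 5 at 0.82 and the other exposed arrays between 0.15 and 0.28, and its other probe gave 0.01 ± 0.12.

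On the lower side the genes of smallest p included genes of protein synthesis, folding and transport, all with small changes. Sec13, a coat protein of vesicles leaving the endoplasmic reticulum, read -0.15, -0.04, -0.34, -0.21 and -0.52 in exposed hearts and -0.32, 0.17 and 0.29 as the lowest, median and highest control, a change of -0.33 ± 0.10. Cct2, a subunit of the ring that folds actin and tubulin, showed the tightest controls. They ran from -0.98 through a median of -0.93 to -0.86, and exposed arrays read -1.28, -1.20, -1.18, -1.12 and -1.46, all lower. The change of Cct2 was -0.32 ± 0.10 and its other probe gave -0.31 ± 0.15.

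Eif3d, a subunit of the initiation factor that brings mRNA to the ribosome, read -1.43, -1.29, -1.29, -1.21 and -1.35 in exposed hearts, all below the controls, which lay between -1.11 and -0.99. Its change was -0.25 ± 0.08. Atf4, the transcription factor of the integrated stress response, read -2.35, -2.20, -2.69, -2.04 and -2.84 in exposed hearts. Its controls ran from -2.10 through a median of -2.01 to -1.71, so 4 of 5 exposed arrays lay below all controls, and the change was -0.49 ± 0.17. Impdh2, which makes guanine nucleotides, stood at -0.27 ± 0.09, and Oaz1, the brake on polyamine synthesis, at -0.30 ± 0.09, both without overlap of the groups. Aoah, which inactivates bacterial lipopolysaccharide, stood at -0.33 ± 0.11 and the Mediator subunit Med27 at -0.24 ± 0.09, again without overlap.

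The remaining lower genes were Gnl1 (-0.36 ± 0.11), Mfap3 (-0.40 ± 0.12), the phosphatase regulator Ppp1r8 (-0.31 ± 0.11) and the glucosamine enzyme Gnpda1 (-0.44 ± 0.16). The other probes did not bear out Gnl1 (0.03 ± 0.18) or Mfap3 (0.04 ± 0.08), and those of Sec13 (-0.09 ± 0.09), Med27 (-0.05 ± 0.13) and Ppp1r8 (-0.12 ± 0.15) gave smaller changes. In Gnpda1, control replicate 2 at 0.96 lay far above the other controls, whose highest was 0.26. Carbon black replicate 5 was the lowest array of all for Sec13, Cct2, Mfap3, Gnl1, Oaz1, Impdh2, Atf4, Ppp1r8 and Gnpda1.

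Whether related genes shared these changes was read from 3 lists added after the values were seen, so their counts support nothing. Counts of the other lists, chosen with earlier results of these data known, are not a test either. Of the 8 chaperonin ring genes 6 were below 0 (median -0.13), with Cct4 at -0.29 ± 0.12. Of 19 cytosolic aminoacyl-tRNA synthetase genes 14 were below 0 (median -0.13), led by Yars at -0.31 ± 0.11 and Aars at -0.28 ± 0.10; without carbon black replicate 5 the chaperonin and synthetase medians were 0.0017 and -0.04. The synthetases charge tRNAs and many are targets of Atf4. Of 13 genes of initiation factor 3, 9 were below 0, with a median of only -0.03.

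The list of the unfolded protein and integrated stress responses, with Atf4 among it, had 19 of 25 members below 0 and a median of -0.09. Creld2, an endoplasmic reticulum protein made under folding stress, stood at -0.35 ± 0.20. With each array centred on its median in place of loess the same list had 18 of 25 above 0 and a median of 0.07, while that centring moved the median of all genes from 0.01 to 0.08. Relative to all genes the list's median was -0.01 under that centring, so its lower side depends on the scaling.

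Genes of heart muscle energy supply were mostly on the higher side. Of 31 fatty acid oxidation genes 30 were above 0, with a median of 0.34, or 0.23 without control replicate 6. On the higher side 3 had an unadjusted p under 0.05, beside 1.6% of all genes, and none passed. Array levels of the list ran from 0.09 to 0.62 on exposed arrays, and control replicates 1 and 2, at 0.40 and 0.49, lay in that range. Lpl, the lipase that frees fatty acids from circulating triglyceride, read 5.19, 5.30, 5.71, 5.68 and 5.87 in exposed hearts and 4.25, 4.93 and 5.77 as the lowest, median and highest control, a change of 0.58 ± 0.25. Acaa2, the last enzyme of the mitochondrial spiral, differed by 0.41 ± 0.18, the lipid droplet protein gene Plin5 by 0.65 ± 0.30 and Acsl1, which activates fatty acids, by 0.52 ± 0.27. For Lpl, Acaa2 and Acsl1 the highest control was replicate 2, and the lowest for Lpl, Acaa2 and Plin5 was replicate 6.

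Respiratory chain lists had medians of 0.20 for complex I (33 of 36 above 0) and 0.23 for complexes II to V (37 of 41 above 0), which were 0.10 and 0.13 without control replicate 6. The cytochrome oxidase subunit gene Cox7b, at 0.55 ± 0.25, and the heart and muscle form Cox7a1, at 0.45 ± 0.21, had the smallest p among them. Array levels of the second list reached 0.47 on control replicate 2 and -0.40 on control replicate 6, and exposed arrays ran from -0.08 to 0.46, within the range of the controls. Mitochondrial ribosomal protein genes had 53 of 74 above 0, but a median of only 0.06. Lactate and glucose genes had 16 of 26 above 0 and a median of 0.11, with Pfkfb1, which makes the activator of glycolysis, at 0.98 ± 0.41 and Ldhb, the heart form of lactate dehydrogenase, at 0.91 ± 0.40.

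Contractile genes had 19 of 21 members above 0 and a median of 0.23. Tnni3 read 7.21, 6.94, 6.70, 6.48 and 6.51 in exposed hearts against 5.72, 5.90 and 6.68 as the lowest, median and highest control, a change of 0.73 ± 0.38. Myl3, the ventricular essential light chain, differed by 0.68 ± 0.35, the actin gene Actc1 by 0.39 ± 0.25 and the Z-disc gene Csrp3 by 0.29 ± 0.19. Ventricular markers, which share members with this list, had 12 of 12 above 0 and a median of 0.37. With array position as a block Tnni3 stood at 0.44, Myl3 at 0.30, Actc1 at 0.17 and Csrp3 at 0.28. The contractile and ventricular medians were then 0.19 and 0.21. On the arrays, the contractile level was 0.30 to 0.35 on carbon black replicates 1 to 4 and 0.07 on replicate 5, and control replicates 1 and 2, at 0.33 and 0.27, stood beside them. More ventricular muscle cells in the sample and more of this RNA in each cell cannot be told apart.

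Channel genes of the working heart had 13 of 17 members above 0 and a median of 0.21, or 0.11 without carbon black replicate 3, with the potassium channel subunit gene Kcne1 at 1.09 ± 0.61. Calcium handling genes had 12 of 15 above 0 and a median of 0.08. Among cardiac stress genes 9 of 16 were above 0 and the median was 0.03. The atrial peptide gene Nppa stood at 0.41 ± 0.21, while Gdf15, a stress cytokine, stood at -0.46 ± 0.21. With array position as a block the channel, calcium handling and cardiac stress medians were 0.02, 0.06 and -0.11. Kcne1 then stood at 0.87, Nppa at 0.18 and Gdf15 at -0.57.

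Genes known to respond to glucocorticoids had 20 of 25 members above 0 and a median of 0.31, or 0.21 without control replicate 4. Klf15, a regulator of heart metabolism, read 4.58, 4.77, 5.15, 4.40 and 4.05 in exposed hearts and 2.81, 3.61 and 4.52 as the lowest, median and highest control, a change of 0.88 ± 0.38, with 0.22 ± 0.25 on its other probe. The metal-binding Mt1 differed by 0.44 ± 0.17 and Tsc22d3, the leucine zipper gene GILZ, by 0.37 ± 0.18. Hif3a lay on the other side at -0.34 ± 0.17. The medians of this list at day 1 and day 3 were 0.35 and 0.30.

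Genes of dividing cells leaned furthest to the lower side among the pathway lists, with 25 of 26 below 0 and a median of -0.21. All named members were far below the reference pool in every heart. Cdc20 read -3.97, -3.80, -3.55, -3.91 and -3.94 in exposed hearts and -3.97, -3.35 and -3.03 as the lowest, median and highest control, a change of -0.38 ± 0.17. Aurka differed by -0.34 ± 0.16, Ccna2 by -0.48 ± 0.24 and Birc5 by -0.36 ± 0.19. Array levels of the list were highest on control replicates 5 (0.32) and 6 (0.29), and the other 4 controls, from -0.26 to -0.05, overlapped the exposed range of -0.47 to -0.07. With array position as a block 8 of 26 were above 0 and with median centring 10 of 26, with medians of -0.11 and -0.06, and in the 3 slide pairs the median was 0.03.

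Fibrillar matrix genes had 25 of 34 members below 0 and a median of -0.12. Sparc, a collagen-binding matrix protein, read -0.55, -0.48, -0.85, -0.36 and -0.51 in exposed hearts and -0.51, -0.19 and -0.02 as the lowest, median and highest control, a change of -0.35 ± 0.14. The gelatinase Mmp2 differed by -0.32 ± 0.17, the collagen gene Col8a1 by -0.43 ± 0.25 and Spp1, which encodes osteopontin, by -0.53 ± 0.30. Fibroblast markers had 8 of 16 members on each side and a median of 0.01. That median was -0.19 with array position as a block and 0.21 with median centring. In the 3 slide pairs the fibroblast median was -0.54 and the matrix median -0.38. Both lists were low on control replicate 2 (fibroblast -0.75, matrix -0.46) and on carbon black replicate 3 (-0.36 and -0.41). Under median centring the matrix list had 21 of 34 above 0 and a median of 0.07, which is -0.01 relative to all genes.

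Inflammatory lists were on the lower side or near 0. Interferon-responsive genes had 21 of 27 below 0 and a median of -0.13, with 3 at an unadjusted p under 0.05 on the lower side, beside 1.38% of all genes. Without control replicate 6, the array high in lymphocyte transcripts, the median was -0.02. Irf7, the regulator that amplifies interferon, differed by -0.47 ± 0.21, the tetherin gene Bst2 by -0.42 ± 0.20, Stat2 by -0.35 ± 0.15 and the RNA sensor gene Oas2 by -0.35 ± 0.20. For Stat2 the change leaned on carbon black replicate 5, at -0.99, with the other exposed arrays between -0.14 and 0.16.

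Acute phase genes, which the liver and inflamed tissue make, had 11 of 16 below 0 and a median of -0.06. Chemokine and cytokine genes had 20 of 32 below 0 and a median of -0.07, the fractalkine gene Cx3cl1 standing at -0.26 ± 0.13. NF-kappa-B genes had 8 of 14 below 0 and a median of -0.12. Macrophage markers had 12 of 19 below 0 (median -0.06), MHC class II genes 5 of 8 (median -0.03) and T and B cell markers 10 of 11 (median -0.16). The lymphocyte values moved with control replicate 6 and carbon black replicate 1: without both arrays the lymphocyte list's median was -0.05, and without control replicate 6 alone it was 0.21. Without control replicate 6 the MHC class II median was 0.36, the macrophage median 0.03 and the NF-kappa-B median -0.02, and without carbon black replicate 1 the MHC class II median was -0.32.

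Genes of the oxidant defence governed by Nrf2 had 22 of 34 above 0 and a median of 0.10. Gstm1, which joins glutathione to reactive compounds, read 1.33, 1.62, 1.73, 1.46 and 1.93 in exposed hearts and 0.43, 1.08 and 1.22 as the lowest, median and highest control, with no overlap. Its change was 0.63 ± 0.27, or 0.27 with array position as a block, and its other probe gave 0.18 ± 0.15. Near-identical Gstm genes may share its signal. Srxn1, which restores oxidised peroxiredoxins, stood at -0.23 ± 0.13. Immediate early genes had 15 of 20 below 0 and a median of -0.18. Fos read -2.27, -2.16, -2.65, -1.31 and 0.70 in exposed hearts and -2.97, -0.57 and 0.65 as the lowest, median and highest control, so the groups overlapped over most of their range.

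**Figure D4:**
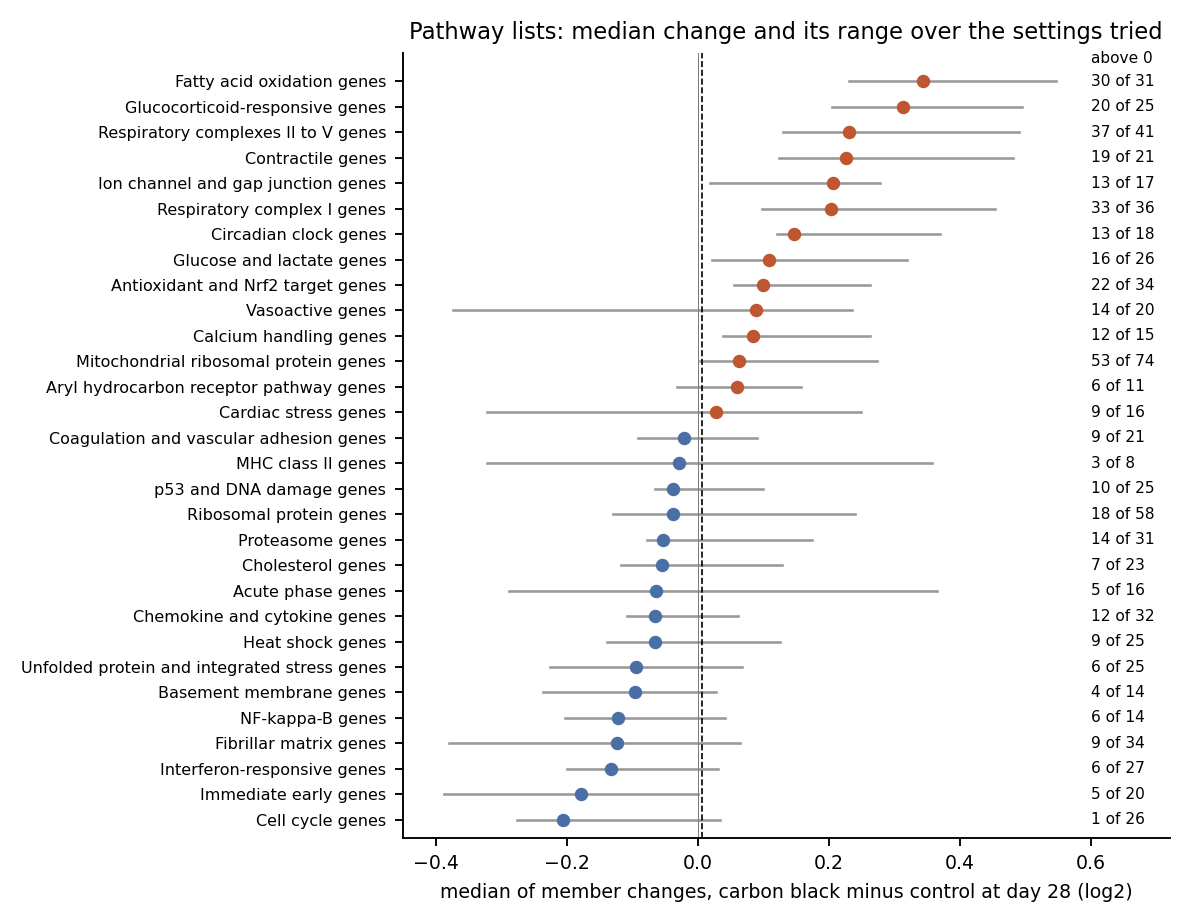
Median change at day 28 of the members of 30 pathway lists (points, orange above 0 and blue below 0), with the range of that median over the 28 settings tried (grey lines), the median of all genes (dashed line) and the number of members above 0. Fatty acid oxidation genes (0.34) and glucocorticoid-responsive genes (0.31) lie at the top, and cell cycle genes (-0.21) at the bottom.

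Besides Dbp, the largest changes included genes whose level varied widely within both groups. Ucp1, the heat-making protein of brown fat, read 6.79, 6.52, -0.06, 5.10 and 6.93 in exposed hearts. Controls 3, 4 and 5 read 5.71, 5.30 and 5.49 and controls 1, 2 and 6 read 0.13, 0.01 and 0.54. Ucp1 was thus either near 0 or above 5 in both groups, and its change of 2.19 ± 1.5 came with 4 of 5 exposed and 3 of 6 control arrays on the high side. The fat cell genes Cidec (0.52 ± 1.39), Cfd (0.44 ± 1.32), Car3 (0.39 ± 1.20), Adipoq (0.08 ± 1.24) and Hp (0.69 ± 1.15) had, after Ucp1, the widest spread among genes with a symbol.

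Within its group, each of these fat cell genes was lowest on control replicate 2 or carbon black replicate 3. Adipocyte markers as a list had 12 of 13 above 0 and a median of 0.42, which was 0.03 without control replicate 2 and 0.14 in the slide pairs. Cidea, a fat droplet protein that mouse heart also makes, differed by 0.60 ± 0.24 with controls from 4.61 to 5.11 and exposed arrays from 5.06 to 5.78. It did not share the low values of the other fat cell genes on control replicate 2 (5.09) or carbon black replicate 3 (5.35).

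Sln, the calcium pump inhibitor of the atria, read 0.33 on control replicate 2 and 5.73 to 6.45 on the other controls, against 5.93 to 6.77 in exposed hearts. Its change was 1.24 ± 1.19 with that array and 0.30 without it, and its other probe gave 0.10 ± 0.67. The atrial light chain genes Myl7 and Myl4 differed by 1.02 ± 0.97 and 0.96 ± 1.02, and by 0.48 and 0.13 without it. Hamp, the iron hormone hepcidin, stood at 0.00 on the same array and at 2.21 to 2.76 on the other controls. Its exposed values were 3.57, 3.34, 3.11, 2.75 and 3.49, and its change was 1.13 ± 0.73, or 0.71 without control replicate 2.

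The fatty acid transporter gene Slc27a2 differed by 1.56 ± 0.87, from 0.00 to 4.95 in exposed hearts and from -0.11 to 1.07 in controls. The largest changes on the lower side were Vmn1r195 (-0.82 ± 0.41), Fos (-0.82 ± 0.63), Xlr4b (-0.80 ± 0.38), Pou2f3 (-0.73 ± 0.47), Atf3 (-0.71 ± 0.54) and Fchsd1 (-0.69 ± 0.33). Vmn1r195 is a pheromone receptor gene and Pou2f3 a tuft cell factor; Xlr4b belongs to a family of near-identical copies that its probes may not separate.

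The design also asks whether the day 28 change differed from the changes at days 1 and 3. No gene passed that test against day 1, day 3 or both together (limma with Benjamini-Hochberg, lowest adjusted p 0.999932, 0.999751 and 0.999841; 279, 240 and 214 genes at an unadjusted p under 0.05). Carbon black against control gave 0 genes after adjustment at day 1 and day 3 as well, with 1428 (7.21%) and 2196 (11.1%) at an unadjusted p under 0.05. The day 28 share of 2.98% was the lowest of the 3 days. Dbp had changes of 0.12 ± 0.36 at day 1 and 0.33 ± 0.38 at day 3, and Nr1d1 of 0.05 ± 0.19 and 0.35 ± 0.20. Hlf had 0.07 ± 0.28 and 0.02 ± 0.30. Nt5e had 0.47 ± 0.24 and 0.76 ± 0.25 before its 0.78 at day 28, and Gstm1 0.56 ± 0.26 and 0.86 ± 0.27 before 0.63.

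Genes picked at day 28 tended to lie on the same side on the earlier days, which used other mice as exposed and as control animals. Of the 24 genes of smallest p described above, 23 had the same sign at day 1 and 24 at day 3. Of the 590 genes at an unadjusted p under 0.05, 83.6% had the same sign at day 1 and 89.7% at day 3, beside 59.5% and 66.1% of all genes. The days share slides and layout, however: 3 of 6 control and 2 of 5 exposed day 28 arrays sat on slides with arrays of other days, and over all days 10 of 16 exposed arrays were at position 4, where no control array was. The 3 slide pairs that held day 28 arrays alone each set a control at position 1 against an exposed array at position 4. From them, the 590 genes with the largest mean over SD had the sign of day 1 in 79.7% and of day 3 in 57.5%. The shares of all genes with a value were 67.3% and 56.6%. At day 1, 5 of 6 controls were at position 1 and 4 of 6 exposed arrays at position 4. At day 3 these were 4 of 6 and 3 of 5. From the 2 arrays of each group at position 3, all on slides with other days, the 590 largest differences had the sign of day 1 in 34.4% and of day 3 in 77.8%, beside 47.1% and 61.8% of all genes. Exposure and array position cannot be told apart in these shares.

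**Figure D5:**
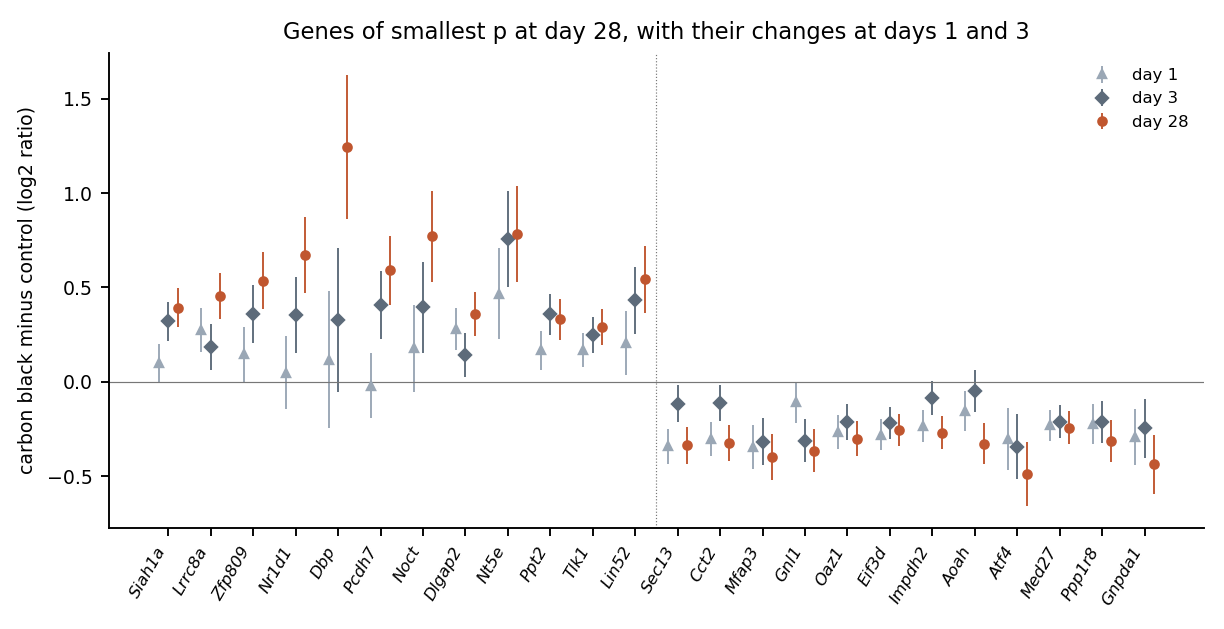
Change (carbon black minus control, log2 ratio) with its standard error at days 1, 3 and 28 for the 24 genes of smallest p at day 28, 12 higher and 12 lower, divided by the dotted line. The genes were chosen on the day 28 values. Of the 12 higher genes 11 have changes above 0 at day 1 and 12 at day 3. Dbp, Nr1d1 and Noct lie higher at day 28 than at days 1 and 3, but no gene passed the test of a difference between days.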

How the data were processed

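The deposited scanner files give per spot the intensity of the median foreground and background pixels, a processed signal and quality marks, per the file headers (Agilent Feature Extraction 10.1.1.1). The authors deposited a log2 value table as well, used here as an alternative; its scale and direction were read from its correlation with the scanner ratios (0.995 to 0.998), and the authors' own background and centring steps are not given in the sources used here. Heart RNA was in Cy5 and reference RNA in Cy3, per the labels. In limma 3.58.1 (R 4.3.3) median signals went through normexp with an offset of 50, then loess on each array with control spots at weight 0, and outlier spots were dropped. A probe was kept where a share of 0.5 or more of any group's arrays had it well above background, and the brightest probe stood for its gene, which gave 19798 genes, 12347 with a symbol, named by RefSeq accession. The fit had a mean for each of 6 groups over 34 arrays (28 residual degrees of freedom) and Benjamini-Hochberg adjustment over all genes at 0.05. A gene whose value was missing on an array was fitted without it. The fit was also run on simulated data with residuals shuffled over arrays, which breaks the tie between exposure and array position. Its counts are not reported here. The number of arrays limits the precision. Members and lists were chosen with earlier results of these data known. Named were, on each side, the 12 genes of smallest p with a symbol, the 6 largest changes, the 6 of widest spread and up to 4 members of a list; the other clock genes were added. Some of these genes are not reported here. Alternatives covered background, normalisation, filter, probe choice, slide, scan day, array position, weights and samples left out; 2 of them, leaving out arrays low in adipocyte or high in lymphocyte transcripts, were chosen after seeing the data.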

Additional observations from a re-analysis of the deposited data

Results flagged for a closer look

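In groups of 5 or 6 arrays a value whose gap to its nearest neighbour took up most of the group's range was marked. Of 276 sets of values looked at (92 genes and 46 lists in each group), 38 met this. Chance marks about 1 in 20 among independent sets not chosen from the data. These genes were chosen from the same values, some for their wide spread, and lists share members. The 38 can therefore not be read against that rate.

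Control replicate 2 accounted for 17 of the 38, more than any other array. It was low for the atrial genes Sln (0.33), Myl7 (2.84) and Myl4 (-0.31), for Hamp (0.00055), and for the fat cell genes Cidec (-0.069), Cfd (0.85), Car3 (-0.19) and Adipoq (0.035). It was high for the clock genes Tef (1.54) and Ciart (2.14) and for Gnpda1 (0.96), and low for Arntl (-0.88). Its list levels stood apart for atrial markers (-2.91), fibroblast markers (-0.75), fibrillar matrix genes (-0.46), antioxidant and Nrf2 target genes (0.15) and proteasome genes (0.30).

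Control replicate 6 stood apart for T and B cell markers (1.92), MHC class II genes (1.86), NF-kappa-B genes (0.45) and aryl hydrocarbon receptor pathway genes (-0.068). Control replicate 4 did so for Med27 (0.29) and Gstm1 (0.43), control replicate 3 for Pfkfb1 (-0.36) and control replicate 5 for endothelial markers (-0.47).

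Among exposed arrays, carbon black replicate 5 was apart for Tlk1 (0.82), Mfap3 (-0.99), Ppp1r8 (-0.82), Vmn1r195 (1.56), Stat2 (-0.99) and Cct4 (-1.78), and for the contractile (0.069) and antioxidant and Nrf2 target (0.21) lists. Carbon black replicate 3 was low for Ucp1 (-0.056) and Cfd (1.43). Carbon black replicate 1 was low for Plin5 (4.91) and high for T and B cell markers (0.94), and carbon black replicate 2 was low for Pfkfb1 (0.73). What sets these arrays apart was not tested.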

How the results depend on the processing

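No gene passed under any of the 27 alternatives for the day 28 comparison or the 25 for its differences from days 1 and 3, those that leave out 1 array each included. Genes at an unadjusted p under 0.05 ran from 158 (0.798%, median centring) to 2726 (13.8%, the 6 arrays of 3 slide pairs), beside 590; the lowest adjusted p was 0.229611, in that last setting. Of single arrays, leaving out carbon black replicate 5 gave 270 such genes and leaving out control replicate 2 gave 934. Slide as a random block had a consensus correlation of 0.0536. Of the 49 list medians, 18 turned sign when some single array was left out and 20 did in the slide pairs; 44 turned or moved by over 1.5 times without some single array. The fat cell genes changed sign. In the slide pairs Cidec stood at -1.05, Cfd at -1.17, Car3 at -1.17, Adipoq at -1.37, Hp at -0.23 and the cell cycle gene Birc5 at 0.0053. With array weights Cidec stood at -0.044, Cfd at -0.048, Car3 at -0.16 and Adipoq at -0.44. Adipoq stood at -0.14 with Agilent's processed signals, at -0.072 with position as a block and at -0.077 without the arrays high in T and B cell transcripts. Leaving out 1 array each gave -0.36 to 1.71 for Cidec, -0.47 to 1.54 for Cfd, -0.46 to 1.51 for Car3, -0.75 to 1.18 for Adipoq and -0.037 to 1.71 for Hp. The cause was not tested. The alternative with mean in place of median signals was not run, since the files used hold no mean signals. No paired analysis was possible because the replicate numbers follow the order of the samples and tie no mice together. Slide pairs stand in its place, but each sets a control at position 1 against an exposed array at position 4. With 5 and 6 arrays no change of any size passed, Dbp at 1.24 and Ucp1 at 2.19 included. The median standard error of 0.16 is therefore not a limit of detection, and a change near it was not detectable.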

Other observations

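Gene groups not described so far had medians from -0.10 to 0.09, beside 0.01 over all genes. Of ribosomal protein, cholesterol and basement membrane genes 31.0%, 30.4% and 28.6% were above 0, beside 52.0% of all genes. Ribosomal protein genes had 18 of 58 above 0 and a median of -0.04, proteasome genes 14 of 31 and -0.05, cholesterol genes 7 of 23 and -0.05, heat shock genes 9 of 25 and -0.07, and p53 and DNA damage genes 10 of 25 and -0.04. Basement membrane genes had 4 of 14 above 0 (median -0.10) and coagulation and vascular adhesion genes 9 of 21 (median -0.02). Vasoactive genes had 14 of 20 above 0 and a median of 0.09, which was -0.37 in the 3 slide pairs. Aryl hydrocarbon receptor pathway genes had 6 of 11 above 0 and a median of 0.06.

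Of the other cell types, smooth muscle and pericyte markers had 12 of 14 above 0 and a median of 0.30, endothelial markers 12 of 18 and 0.09, and epicardial and mesothelial markers 10 of 12 and 0.19. Without control replicate 2 the smooth muscle median was 0.13 and the epicardial median -0.06, and in the 3 slide pairs they were -0.11 and -0.31. Schwann and neuronal markers (10 of 10, median 0.16) and mast cell markers (6 of 6, median 0.16) lay above 0 throughout; without carbon black replicate 5 their medians were 0.07 and -0.02. Atrial markers had 8 of 10 above 0 and a median of 0.63, which was -0.07 without control replicate 2. Skeletal muscle (9 of 11), erythroid (3 of 6), neutrophil (4 of 6), liver (5 of 8) and airway and alveolar markers (5 of 7) had medians of 0.08, 0.07, 0.04, 0.02 and 0.13. No member of any of these lists passed in limma with Benjamini-Hochberg adjustment.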
